A study of Homo sapiens with 8 samples.

Results

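RAB small GTPases were followed in BOKU and SKG-I, 2 lines of cervical cancer cells, after knockdown of IGF2R, the receptor that binds IGF-2 and carries lysosomal enzymes tagged with mannose 6-phosphate. The group holds 32 genes named as RAB family members, and a probe set was used when the platform annotation gives it that gene alone and its signal reached 500 on at least 1 of the 8 arrays. Of the 32 genes, 27 were measured by 58 probe sets, among 8961 genes and 16517 probe sets measured in all. Single probe sets measured 9 of these genes, and several probe sets each measured the other 18.

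Total RNA was taken 72 h after transfection with control siRNA (siCtrl) or siRNA against IGF2R (siIGF2R), and each line and siRNA gave 1 RNA sample that was hybridised to 2 arrays. The groups are therefore BOKU siCtrl, BOKU siIGF2R, SKG-I siCtrl and SKG-I siIGF2R, all grown in Ham's F12 medium with serum and all lipofected in the same way. Duplicate arrays carried the same total RNA, so their spread is technical, and the replicates of the siRNA effect are the 2 cell lines. The knockdown is transient, and neither the labels nor the methods name which of the study's siRNAs against IGF2R was on the arrays. On these arrays, effects of an siRNA sequence on other transcripts and effects of the loss of IGF2R therefore cannot be told apart. The study also quantified mRNA of Golgi vesicle transport genes with 2 siRNAs against IGF2R, and its PCR primers include RAB1B and RAB1A. Those measurements are not part of the data used here.

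RAB proteins are small GTPases that switch between a GTP-bound state on membranes and a GDP-bound state. Exchange factors (GEFs) activate them, GTPase-activating proteins (GAPs) turn them off, and effectors such as tethers and motors bind the active form. Different members work at the Golgi, the endosomes, the lysosome and the plasma membrane, and receptors such as IGF2R move between several of these compartments.

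The target itself was measured first. Probe set 201393_s_at of IGF2R read 7288 and 6710.5 in BOKU siCtrl against 641 and 645 in BOKU siIGF2R, and 4120 and 3838 in SKG-I siCtrl against 257 and 295 in SKG-I siIGF2R. Its mean change over both lines was -3.65 on the log2 scale (SE 0.21, adjusted p = 0.0221 in limma, 2 lines), and all 4 knockdown arrays read below all 4 control arrays. Duplicate arrays correlated at 0.9845 to 0.9887, and the duplicate arrays of a RAB probe set differed with a log2 SD of 0.0309 to 0.408 (median 0.0885). The number of RNA samples limits the precision here, with 1 residual degree of freedom for each probe set.

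Markers of the labelled cell type were checked on the same arrays. The keratin genes KRT8, KRT18 and KRT19 and the cell cycle inhibitor gene CDKN2A read 1939 or more in both lines, whereas KRT5 and KRT14 stayed below 46 in both. EPCAM and CDH1, which encode epithelial adhesion proteins, read 17.9 to 50.9 and 1 to 3.15 in BOKU, so both were near the bottom of the scale there, against 1247 to 1536 and 143 to 652 in SKG-I. Of 12 markers of other cell types, 11 had a probe set, and COL1A1 and ACTA2 were the 2 past the signal minimum. COL1A1 read 1186.7 to 1529.6 in BOKU and 4304.2 to 5683.7 in SKG-I, and ACTA2 3710.2 to 5695.8 and 1643.1 to 2262.6. Other markers of fibroblasts or of mural and muscle cells, COL1A2, DCN, PDGFRB and DES, read at most 51.95, 148.8, 151.2 and 104.6. The endothelial gene PECAM1 read 381.6 to 480.3 in BOKU and 85.97 to 215.4 in SKG-I, while the leukocyte gene PTPRC stayed below 35. The summed signal of the epithelial markers was 55611 to 57718 in BOKU siCtrl and 41530.4 to 49054 in BOKU siIGF2R, and 47678 to 48600.3 in SKG-I siCtrl and 35551 to 35660.1 in SKG-I siIGF2R. The summed signal of the other markers went from 7668 to 7953 down to 6019 to 6078 in BOKU, and from 8104 to 8423 down to 6411 to 6598 in SKG-I. The part of these shifts in the RAB results below was not tested, and in RNA of whole cultures fewer cells of a kind and less RNA in each cell cannot be told apart.

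RAB1B and RAB21 fell after IGF2R knockdown, and RAB27A and RAB23 rose, each at 1 or more probe sets. In limma at an adjusted p under 0.05, 4 of the 58 RAB probe sets (6.90%) were higher after siIGF2R, beside 2.20% of all probe sets tested. A further 2 of the 58 (3.45%) were lower, beside 2.09% of all. The higher probe sets were 3 of RAB27A and 1 of RAB23, so they stand for 2 genes. When each gene was read at its brightest probe set alone, 1 of the 27 RAB genes was called, RAB1B. The brightest probe sets of RAB21, RAB27A and RAB23 did not pass, with changes of -1.03, 0.29 and 0.48 (adjusted p = 0.0512, 0.375 and 0.1645). Of the 6 called probe sets, 5 (RAB1B, 239329_at of RAB21 and all 3 of RAB27A) reached the minimum of 500 on arrays of the higher siRNA alone, so the filter kept them through the group where they are high. Both the higher and the lower share amount to few probe sets over the background. At an unadjusted p under 0.05, 8 RAB probe sets were higher (13.8%, background 14.1%) and 10 were lower (17.2%, background 12.9%).

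The median change of the 58 RAB probe sets was -0.118 in BOKU and -0.065 in SKG-I on the log2 scale, beside 0.035 and -0.003 over all probe sets tested. With 1 probe set for each gene, the one with the highest mean signal, 16 RAB genes had a value below 0 and 11 above 0. Changes of at least 2-fold in both lines were seen at 4 RAB probe sets upward (6.90%, background 3.15%) and 2 downward (3.45%, background 2.28%). These are the 6 probe sets named by the test. Within BOKU alone, 5 RAB probe sets were at least 2-fold higher (8.62%, background 7.51%) and 3 lower (5.17%, background 4.92%). Within SKG-I alone, 6 were higher (10.3%, background 8.62%) and 3 lower (5.17%, background 6.33%). Only 6 genes had a probe set past 2-fold in either line, namely RAB1B, RAB21, RAB27A, RAB23, RAB8B and RAB40B. The other 21 genes, with 42 probe sets, had changes over both lines between -0.68 and 0.39, and their lowest adjusted p was 0.0933.

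The arrays of the 2 siRNAs did not overlap in either line, in the upward direction, at 13 RAB probe sets (22.4%, background 26.4%) and, in the downward direction, at 19 (32.8%, background 23.6%). At 9 RAB probe sets (15.5%, background 13.0%) the arrays were apart in opposite directions in the lines. At 1 of these, of RAB31, the changes also differed by at least 2-fold (1.72%, background 4.57%). Since duplicate arrays carry one RNA, these counts cover the spread of hybridisation alone.

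**Figure D1:**
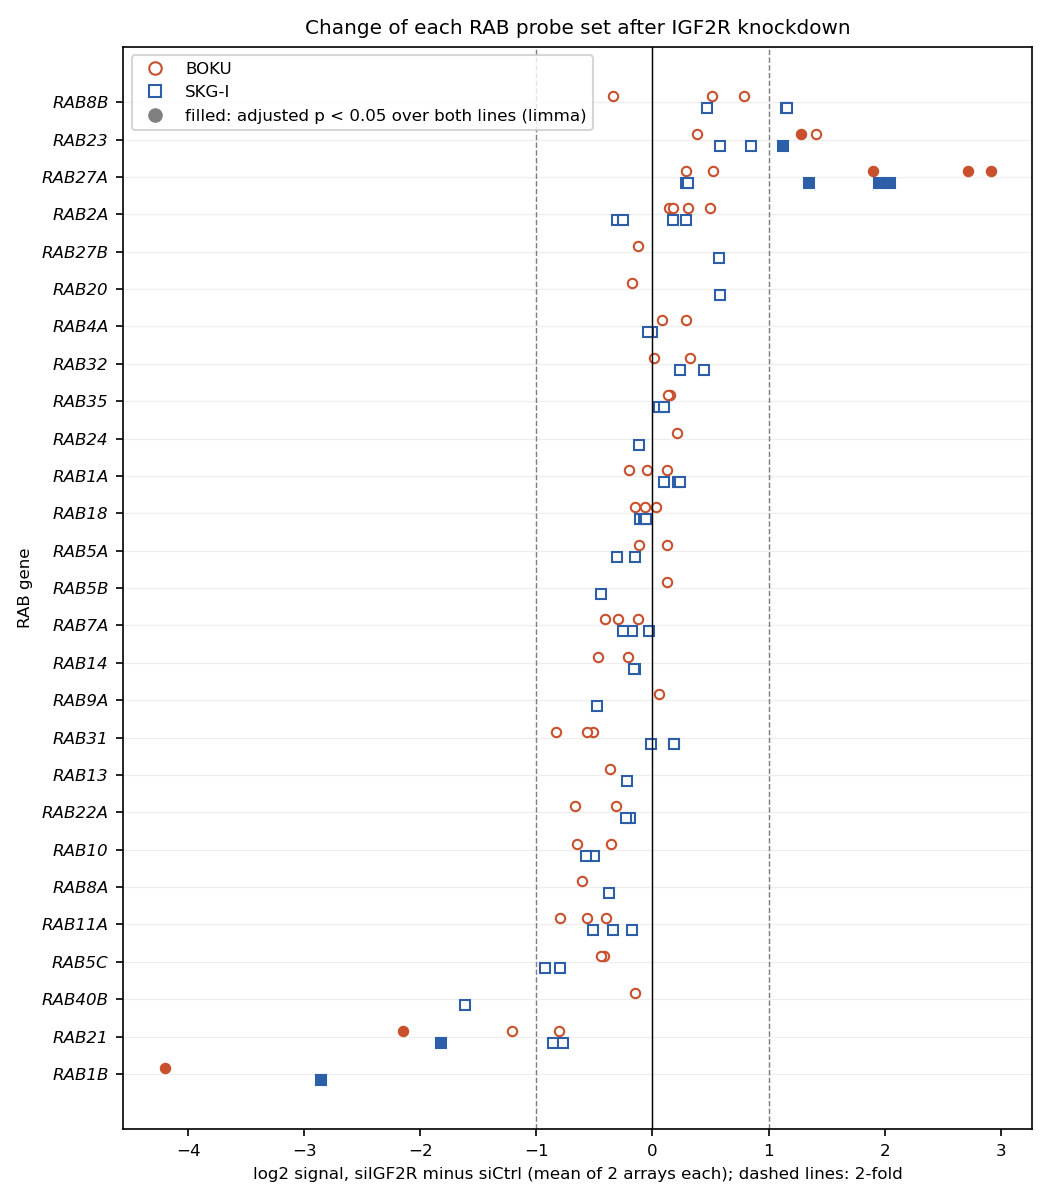
Change of the 58 RAB probe sets, as log2 signal of siIGF2R minus siCtrl on the horizontal axis, with 1 row for each gene, circles for BOKU, squares for SKG-I and filled symbols for an adjusted p under 0.05 over both lines. RAB1B lies at -4.20 and -2.85, 3 probe sets of RAB27A lie between 1.34 and 2.91, and most other genes lie between the dashed 2-fold lines.

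Promoter sequence is shown for the 4 genes with a called probe set, since these carry the siRNA result. Each run is the 250 bases before the annotated start site on the gene's own strand, from RefSeq on build GRCh38.p14. Capitals mark the E-box CACGTG, a palindrome whose binders include, but are not only, the MiT/TFE factors that drive lysosomal genes. For RAB23 and RAB27A the table lists 2 and 5 start sites, and the most upstream is shown. The RAB1B window is chr11:66268389-66268638 on the + strand, that of RAB21 chr12:71754613-71754862 on the + strand, that of RAB23 chr6:57222308-57222557 on the - strand and that of RAB27A chr15:55319124-55319373 on the - strand.
RAB1B: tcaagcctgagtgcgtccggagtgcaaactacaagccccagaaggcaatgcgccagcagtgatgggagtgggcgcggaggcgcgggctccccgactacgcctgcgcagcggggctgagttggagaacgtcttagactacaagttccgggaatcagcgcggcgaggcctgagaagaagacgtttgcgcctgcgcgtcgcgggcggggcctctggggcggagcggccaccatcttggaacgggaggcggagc
RAB21: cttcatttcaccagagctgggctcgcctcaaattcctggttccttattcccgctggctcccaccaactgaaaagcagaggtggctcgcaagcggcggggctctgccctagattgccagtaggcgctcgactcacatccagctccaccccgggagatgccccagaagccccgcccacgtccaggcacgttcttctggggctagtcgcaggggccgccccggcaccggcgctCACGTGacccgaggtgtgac
RAB23: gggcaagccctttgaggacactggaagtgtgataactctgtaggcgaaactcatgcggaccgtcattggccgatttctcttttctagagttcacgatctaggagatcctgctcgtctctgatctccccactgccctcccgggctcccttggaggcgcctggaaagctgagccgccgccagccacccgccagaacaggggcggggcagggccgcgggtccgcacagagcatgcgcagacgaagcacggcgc
RAB27A: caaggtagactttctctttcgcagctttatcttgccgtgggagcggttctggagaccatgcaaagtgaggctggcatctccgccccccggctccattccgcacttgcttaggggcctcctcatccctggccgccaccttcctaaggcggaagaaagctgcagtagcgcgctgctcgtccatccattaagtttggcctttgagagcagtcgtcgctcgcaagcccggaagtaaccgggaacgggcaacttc

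The RAB21 window holds the E-box, which begins 20 bases before the start site, and these letters are not in the RAB1B, RAB23 or RAB27A windows printed. The promoter table has 39 windows of 28 RAB genes, and 5 of these windows (12.8%) hold the E-box, 1 each of RAB5A, RAB21, RAB31, RAB4A and RAB24. Of all 35116 windows, 2228 hold it (6.34%). The cAMP response element TGACGTCA was in 1 RAB window (2.56%), of RAB25, and in 1.65% of all windows. Both motifs are palindromes, so 1 search reads both strands. Both hold ACGT with different letters around it, so sites of the 2 motifs could overlap at their ends alone. A match is a description of letters and says nothing of binding in these cells.

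Among the RAB proteins of the endoplasmic reticulum and Golgi, RAB1B had the largest fall of the 58 probe sets. RAB1B and its paralog RAB1A act in transport from the endoplasmic reticulum to the Golgi. Probe set 220964_s_at of RAB1B, the only one measured for this gene, read 2348 and 2304 in BOKU siCtrl and 109 and 146 in BOKU siIGF2R. In SKG-I it read 2074 and 1933 with siCtrl and 252 and 304 with siIGF2R. All 4 knockdown arrays were far below all 4 control arrays, and the control levels of the lines were close. The changes were -4.20 in BOKU and -2.85 in SKG-I, and RAB1B fell by 3.53 on the log2 scale over both lines (SE 0.36, 95% interval -4.41 to -2.65, adjusted p = 0.0221), which is 11.5-fold. The size depends on low knockdown signals, and with a constant of 64 added to each signal the change was -3.12.

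RAB1A did not pass the test at any of its 3 probe sets. Its brightest probe set, 208724_s_at, read 23434 and 25042 in BOKU siCtrl and 21386 and 25669.8 in BOKU siIGF2R, and 15974 and 16480.1 in SKG-I siCtrl and 17482 and 17216 in SKG-I siIGF2R. The siCtrl and siIGF2R arrays overlapped in BOKU and were apart, slightly upward, in SKG-I. The change over both lines was 0.02 (95% interval -0.24 to 0.29, adjusted p = 0.907), and the other probe sets gave 0.17 and 0.01. The interval of RAB1A lies apart from that of RAB1B, although the difference between the 2 genes was not tested.

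The other Golgi members showed small values. RAB2A, which acts between the endoplasmic reticulum and the Golgi, was measured by 4 probe sets with changes from -0.08 to 0.39, and RAB18, found on lipid droplets and the endoplasmic reticulum, by 3 probe sets from -0.10 to -0.03. RAB6A, which works in traffic at the Golgi, could not be measured on its own. Its 2 bright probe sets are annotated to RAB6D or RAB6C as well and read 2089 to 4338 (201047_x_at) and 2468 to 5187 (210406_s_at). Their changes were -0.56 and -0.58 in BOKU and -0.47 and -0.40 in SKG-I, and the probe set annotated to RAB6A alone stayed between 20.1 and 79.4.

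At the early endosome, all 6 measured genes had a value below 0 at their brightest probe set, from -1.03 to -0.13 with a median of -0.35, and none of those 6 passed the adjusted threshold. Over all genes measured, 4433 of 8961 brightest probe sets were below 0. RAB21, which directs the uptake of integrins, had the largest values of this set. Its brightest probe set, 203885_at, read 3739 and 3674 in BOKU siCtrl and 1608 and 1598 in BOKU siIGF2R, and 1959.5 and 1908 in SKG-I siCtrl and 1100.5 and 1031 in SKG-I siIGF2R. Knockdown arrays were below control arrays in each line, with a change of -1.03 (SE 0.20, 95% interval -1.53 to -0.54) and an adjusted p of 0.0512, just over the threshold.

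The other RAB21 probe sets had values in the same direction. Probe set 239329_at went from 631 and 539 to 117 and 147 in BOKU, and from 396 and 366 to 110.5 and 105 in SKG-I. It fell by 1.99 on the log2 scale (SE 0.36, adjusted p = 0.0460), a call that did not hold without BOKU siCtrl array 2 (adjusted p = 0.0552), BOKU siIGF2R array 1 (0.0544) or SKG-I siCtrl array 1 (0.0504), with a signal floor of 100 (0.0597) or with no variance trend (0.102). Probe set 226268_at had a change of -0.79 (adjusted p = 0.159), so the 3 probe sets of RAB21 spanned 1.20 on the log2 scale.

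The RAB5 proteins control fusion of early endosomes and are encoded by 3 genes. RAB5C at 201140_s_at read 3008 and 2728 in BOKU siCtrl against 2154 and 2128 in BOKU siIGF2R, and 2712 and 2653 in SKG-I siCtrl against 1538 and 1545 in SKG-I siIGF2R. The arrays of the 2 siRNAs did not overlap in either line, and its changes over both lines were -0.61 and -0.68 at its 2 probe sets (adjusted p = 0.125 and 0.110). RAB5A at 209089_at read 8702 and 8958 against 7846 and 8497 in BOKU, and 3968 and 4568 against 3811 and 3854 in SKG-I, a change of -0.13 (adjusted p = 0.598). RAB5B at 201276_at read 1813 and 2033 against 1961 and 2244 in BOKU, where the arrays overlapped, and 1912 and 1753 against 1513 and 1200.1 in SKG-I, a change of -0.16 (adjusted p = 0.680). None of the RAB5 genes passed the test.

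RAB22A and RAB31, relatives of RAB5 at the early endosome and the trans-Golgi network, also did not pass. RAB22A had changes of -0.43 and -0.27 at its probe sets. RAB31 had values of -0.83, -0.56 and -0.51 in BOKU at its 3 probe sets, and of 0.18, 0.18 and -0.02 in SKG-I. Its arrays are given with the other results for a closer look.

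Among the recycling members, RAB11A, which returns cargo from recycling endosomes to the surface, read 9794 and 10545 in BOKU siCtrl and 5437 and 6314 in BOKU siIGF2R at 200863_s_at. In SKG-I it read 8944 and 9228 with siCtrl and 7106 and 7261 with siIGF2R. Knockdown arrays lay below control arrays in both lines, with changes of -0.80 and -0.34, and the value over both lines of -0.57 had an adjusted p of 0.105. The other 2 probe sets of RAB11A gave -0.29 and -0.54. RAB4A, of fast recycling, RAB14, between the Golgi and endosomes, and RAB35, of recycling to the plasma membrane, had values between -0.32 and 0.15. RAB11B read at most 151 and RAB25, a RAB11 relative of epithelial cells, at most 63.3, so neither was measured.

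No late endosomal or lysosomal member passed the test. RAB7A, which governs fusion with the lysosome, had 3 probe sets with changes of -0.16, -0.29 and -0.19 and adjusted p values of 0.552, 0.301 and 0.730. RAB9A, which acts in the return of mannose 6-phosphate receptors from late endosomes to the Golgi, read 4489 and 4642 in BOKU siCtrl and 4975 and 4535 in BOKU siIGF2R. In SKG-I it read 5489 and 5944 with siCtrl and 4229 and 4001 with siIGF2R. The BOKU arrays overlapped and the SKG-I arrays did not, with changes of 0.06 and -0.47 and an adjusted p of 0.519 over both lines. RAB24, linked to autophagy, gave 0.05 and RAB20, linked to phagosomes, 0.20. RAB34, known for lysosome positioning, was not measured, because both of its probe sets, which read 1850.2 to 8189, are annotated to NARR as well. RAB32, a regulator of lysosome-related organelles, had values of 0.12 and 0.38, and RAB38, its relative, read at most 49.9.

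**Figure D2:**
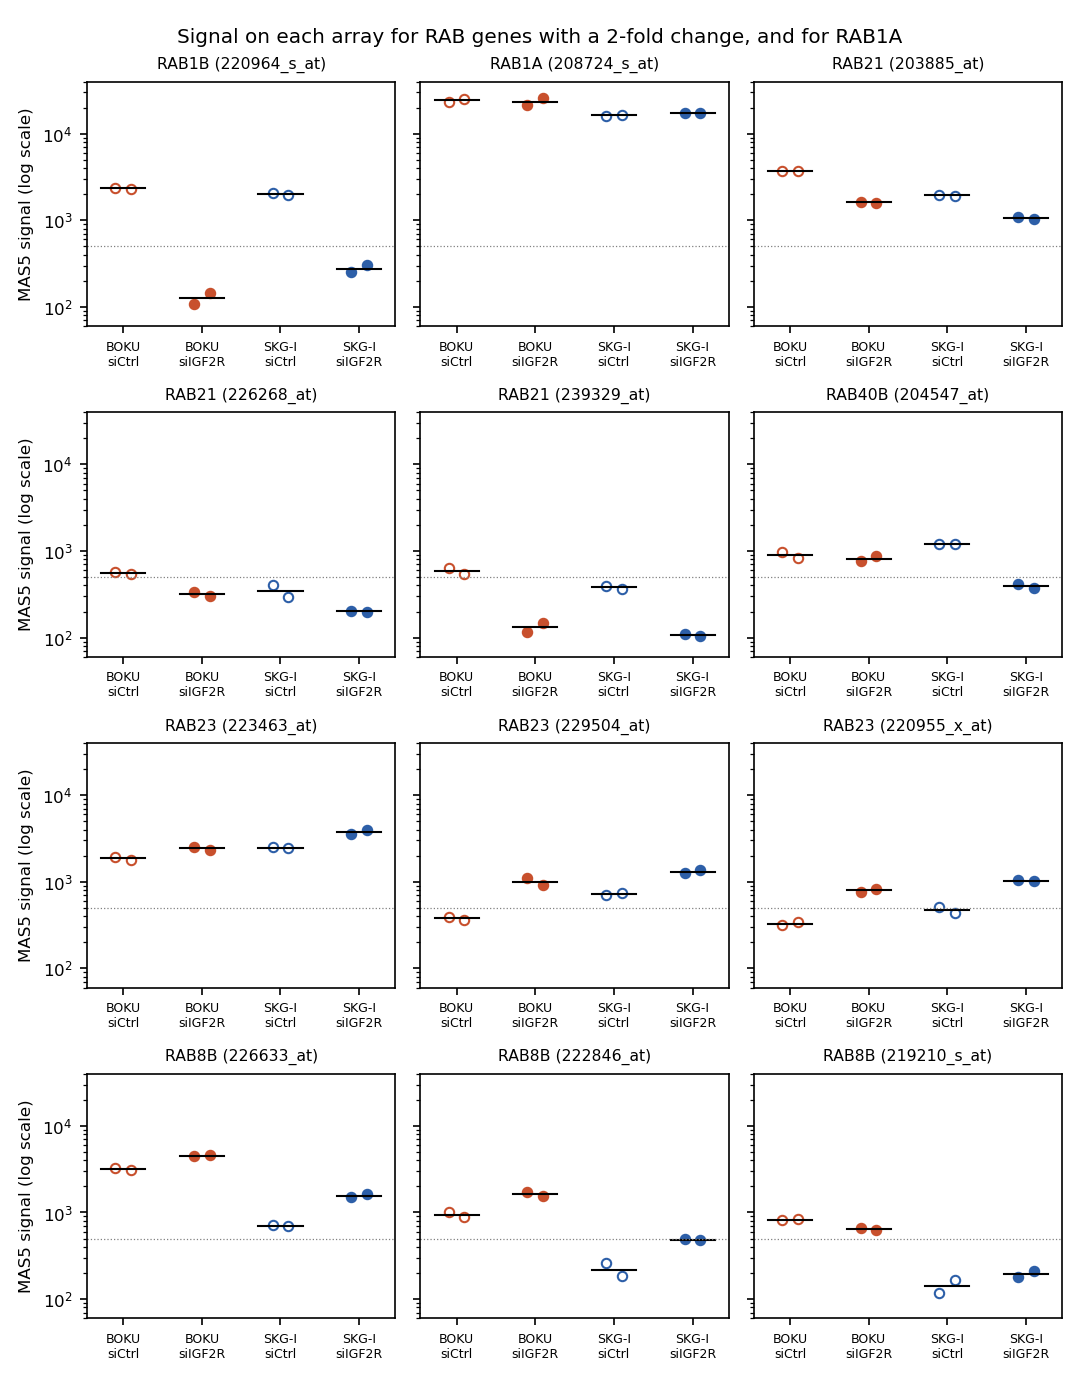
MAS5 signal on a log scale on each of the 8 arrays for RAB1B, the brightest probe set of RAB1A and the probe sets of RAB21, RAB40B, RAB23 and RAB8B, with open points for siCtrl, filled points for siIGF2R, bars for the mean of log2 signals and a dotted line at 500. RAB1B goes from 1933 to 2348 with siCtrl down to 109 to 304 with siIGF2R, while the RAB1A arrays stay between 15974 and 25669.8.

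In the secretory group, RAB27A had the largest rise. RAB27A and its paralog RAB27B dock secretory vesicles, lysosome-related organelles and multivesicular bodies at the plasma membrane. Probe set 222294_s_at of RAB27A read 170.0 and 188 in BOKU siCtrl and 1438 and 1261 in BOKU siIGF2R, and 154 and 163 in SKG-I siCtrl and 650.1 and 659 in SKG-I siIGF2R. All 4 knockdown arrays lay above all 4 control arrays, and RAB27A rose by 2.48 on the log2 scale there (SE 0.32, 95% interval 1.69 to 3.27, adjusted p = 0.0266). Probe set 235766_x_at went from 285 and 305 to 1989.8 and 1892 in BOKU and from 251 and 234 to 865 and 1017 in SKG-I, a rise of 2.33 (SE 0.28, adjusted p = 0.0231). Probe set 209515_s_at went from 469 and 461 to 1771 and 1693 in BOKU and from 346 and 362 to 908 and 889.8 in SKG-I, a rise of 1.62 (SE 0.24, adjusted p = 0.0334).

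The remaining RAB27A probe sets did not pass the test. The brightest, 210951_x_at, read 1998 and 1878 in BOKU siCtrl and 2441 and 2305 in BOKU siIGF2R, and 906 and 1017 in SKG-I siCtrl and 1175 and 1165 in SKG-I siIGF2R. Its arrays did not overlap in either line, but the change was 0.29 (95% interval -0.18 to 0.76, adjusted p = 0.375). Probe set 209514_s_at read 1416 and 1503 against 2107 and 2087 in BOKU and 754 and 897 against 1092 and 949.8 in SKG-I, a change of 0.42 (adjusted p = 0.244). The 5 probe sets of RAB27A thus spanned 2.19 on the log2 scale, the widest span of any RAB gene, and the gene's change depends on the probe set read. Which transcripts each probe set detects was not tested. By Affymetrix naming, the suffixes _s_at and _x_at mark probe sets that can match several transcripts or related sequences, and all 5 carry one of them.

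RAB27B read 3579 and 3799 in BOKU siCtrl and 3387 and 3384 in BOKU siIGF2R at 228708_at. In SKG-I it read 1942 and 2023 with siCtrl and 2822 and 3080.0 with siIGF2R. The arrays were apart in opposite directions in the 2 lines, with changes of -0.12 and 0.57, and the value over both lines was 0.22 (95% interval -0.33 to 0.78, adjusted p = 0.556).

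**Figure D3:**
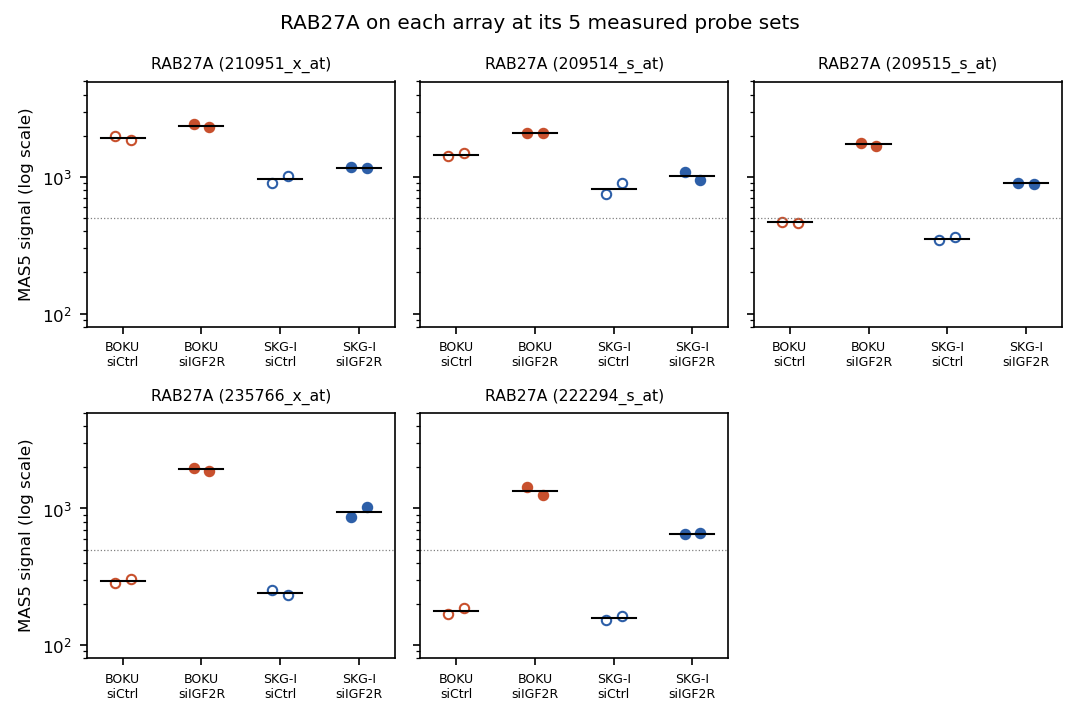
MAS5 signal on a log scale on each array at the 5 probe sets of RAB27A, with open points for siCtrl, filled points for siIGF2R, bars for the mean of log2 signals and a dotted line at 500. At 209515_s_at, 235766_x_at and 222294_s_at the siCtrl arrays read 154 to 469 and the siIGF2R arrays 650.1 to 1989.8, while at 210951_x_at and 209514_s_at the shift is under 2-fold.

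RAB8A and RAB8B, which send vesicles to the plasma membrane and the cilium, had values on opposite sides of 0. RAB8A at 208819_at read 3941 and 3734 in BOKU siCtrl and 2348 and 2703 in BOKU siIGF2R, and 2914 and 2845 in SKG-I siCtrl and 2231 and 2224 in SKG-I siIGF2R, a change of -0.49 (adjusted p = 0.160). RAB8B at 226633_at read 3231 and 3123 against 4477 and 4574 in BOKU and 719 and 694 against 1496 and 1643 in SKG-I, a change of 0.83 (95% interval 0.27 to 1.39, adjusted p = 0.0924). In both lines the arrays of the 2 siRNAs did not overlap at either of these probe sets, and neither value passed the test. RAB8B at 222846_at gave 0.97 (adjusted p = 0.0748), whereas 219210_s_at gave -0.34 in BOKU and 0.47 in SKG-I.

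RAB40B, whose product carries a SOCS box that recruits a ubiquitin ligase, went past 2-fold in SKG-I alone. Its probe set 204547_at read 1219 and 1216 in SKG-I siCtrl and 415 and 379 in SKG-I siIGF2R, and 971 and 836 in BOKU siCtrl and 767 and 865 in BOKU siIGF2R. The SKG-I arrays were apart and the BOKU arrays overlapped, with changes of -1.62 and -0.15. The value over both lines, -0.88, had an adjusted p of 0.197, and the difference between the lines could not be tested with 1 RNA sample in each group.

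The last members of the secretory group were RAB10 and RAB13. RAB10, which acts in exocytosis and the traffic of the glucose transporter GLUT4, had values of -0.43 and -0.61 (adjusted p = 0.131 and 0.0933), with knockdown arrays below control arrays in both lines. RAB13, found at epithelial junctions, had a value of -0.29 (adjusted p = 0.259).

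RAB23, a negative regulator of Hedgehog signaling linked to the primary cilium, rose at 1 of its 3 probe sets. Probe set 220955_x_at read 318 and 339 in BOKU siCtrl and 764 and 828 in BOKU siIGF2R, and 516 and 432 in SKG-I siCtrl and 1052 and 1009.8 in SKG-I siIGF2R. Knockdown arrays were above control arrays in each line, and RAB23 rose by 1.20 there (SE 0.23, 95% interval 0.64 to 1.76, adjusted p = 0.0489). Probe set 229504_at gave 1.13 (adjusted p = 0.0615), and the brightest, 223463_at, gave 0.48 (adjusted p = 0.164). The call at 220955_x_at lay close to the threshold and was lost in 9 of 18 alternative settings, where its adjusted p was 0.0537 to 0.107. These were both other scalings of the arrays (0.0537 and 0.0543), 2 other filters, no variance trend, and the fits without BOKU siCtrl array 2 (0.0590), BOKU siIGF2R array 1 (0.0545), SKG-I siCtrl array 2 (0.0549) or SKG-I siIGF2R array 1 (0.0550).

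The RAB signals also differed between the 2 lines, in most cases with BOKU the higher. Over both siRNAs, 18 of the 58 RAB probe sets (31.0%), of 10 genes, were higher in BOKU in limma, beside 22.3% of all probe sets, and 1 (1.72%) was higher in SKG-I, beside 23.2% of all. In this comparison the replicates of a line are its siCtrl and siIGF2R samples, and the siRNA is a term of the fit. The spread is therefore how far the siRNA change differs between the lines, and only 1 culture pair stands for each line. Values were above 0, that is higher in BOKU, at 44 of the 58 RAB probe sets (75.9%) and at 48.7% of all probe sets, with medians of 0.41 and -0.03.

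With the brightest probe set of each gene and both siRNAs together, RAB32 differed most in this direction. Probe set 204214_s_at of RAB32 read 10048 and 10482 in BOKU siCtrl and 9356 and 11391 in BOKU siIGF2R, and 2341 to 3066 on the 4 SKG-I arrays. It was higher in BOKU by 1.93 on the log2 scale (SE 0.16, adjusted p = 0.00104), and with siCtrl alone the difference was 2.04. RAB8B had 1.85 at its brightest probe set (SE 0.23, adjusted p = 0.00289) and 1.93 and 2.14 at the other 2, with 3231 and 3123 in BOKU siCtrl and 719 and 694 in SKG-I siCtrl at the brightest. RAB8B and RAB32 thus change places with the probe set read. RAB7A was higher by 1.59 (SE 0.16, adjusted p = 0.00173), with 10007 and 10114 against 3154 and 2960.4 with siCtrl.

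The next in size were RAB5A at 1.07 (SE 0.15, adjusted p = 0.00403) and RAB13 at 1.03 (SE 0.15, adjusted p = 0.00444). All measured probe sets of RAB32, RAB8B, RAB7A and RAB5A passed the test, while RAB13 has 1. RAB20 was the 1 gene higher in SKG-I, with 105 to 124 on the BOKU arrays and 404 to 689.5 on the SKG-I arrays, a difference of -2.28 (SE 0.38, adjusted p = 0.00681). It reached 500 on the 2 SKG-I siIGF2R arrays alone, so the filter kept it through the line where it is high. The same holds for 4 of the 18 probe sets higher in BOKU, namely 222846_at and 219210_s_at of RAB8B, 228161_at of RAB32 and 227602_at of RAB7A. The passing of these 4 therefore adds little to that of the brightest probe sets. The lines also differed in EPCAM and CDH1, as given above, and the part of line origin in the RAB differences was not tested.

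**Figure D4:**
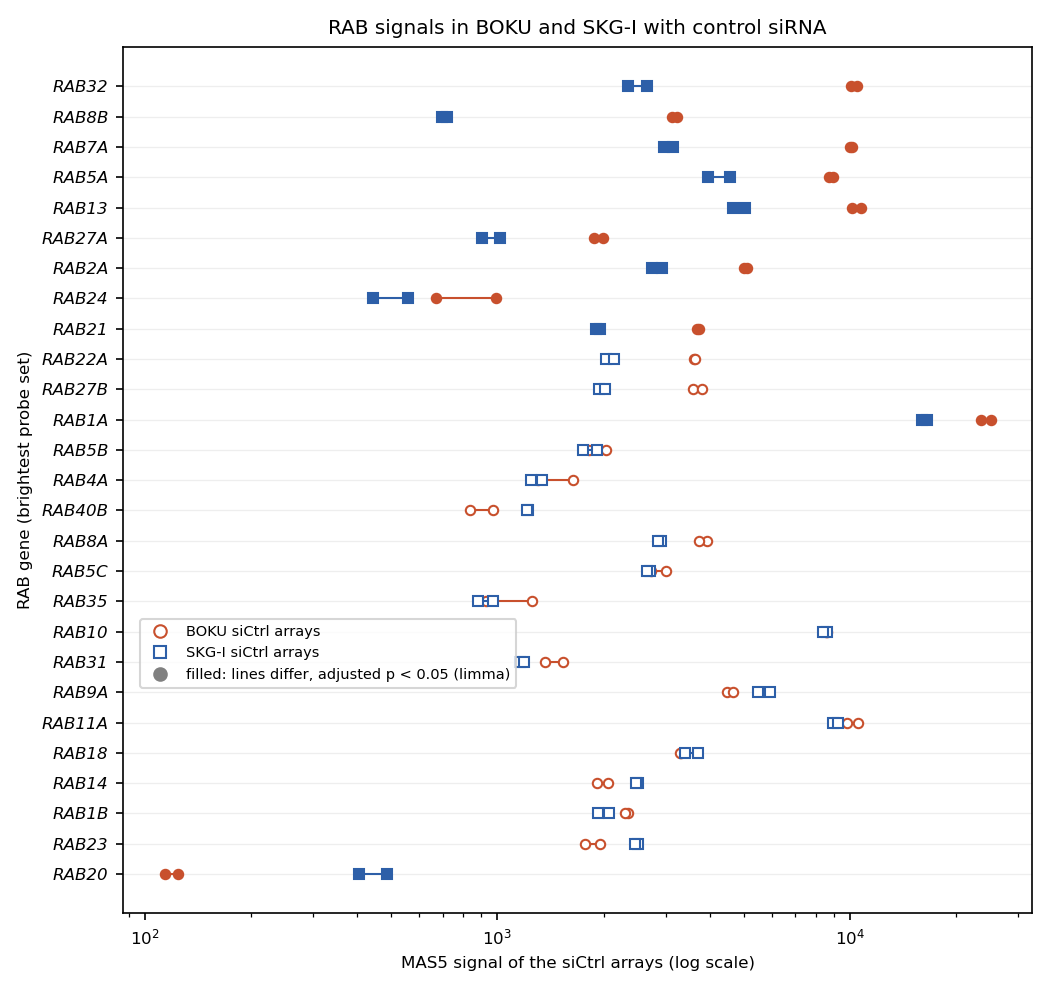
MAS5 signal on a log scale on the siCtrl arrays of BOKU (circles) and SKG-I (squares) at the brightest probe set of each of the 27 RAB genes, ordered by the difference between the lines, with filled symbols where limma called the lines different over both siRNAs. RAB32 reads 10048 and 10482 in BOKU and 2653 and 2341 in SKG-I, and RAB20 reads 114 and 124 in BOKU and 404 and 487 in SKG-I.

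The machinery around the RAB proteins gave no call. Of 183 listed genes, 113 were measured by 170 probe sets. In limma, 0 of these probe sets were called in either direction, beside 2.20% higher and 2.09% lower of all probe sets. With 1 probe set for each gene, 12 genes were higher and 15 lower at an unadjusted p under 0.05. Over all 8961 genes read in this way, 14.4% were higher and 13.9% lower at that p. With arrays taken as separate samples, which counts technical duplicates as replicates, 36 of the 170 probe sets were higher and 38 lower, and of all probe sets 25.8% and 23.2%. Among other RAB genes, 8 of 33 were measured, with 1 higher and 0 lower at an unadjusted p under 0.05, and among genes for prenylation and recycling of RAB proteins 7 of 9, with 2 higher and 0 lower.

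Activators numbered 38 measured of 51, with 2 higher and 9 lower at an unadjusted p under 0.05. With 1 probe set for each gene, their median change was -0.07, and that of all genes measured was 0.006. Subunits of TRAPP, the complex that tethers vesicles at the Golgi and activates RAB1, made up 14 of these 38 and were singled out after their values were seen. Below 0 were 12 of the 14 TRAPP genes, with a range of -0.86 to 0.41 and a lowest adjusted p of 0.0955, and below 0 were 49.5% of all genes. Among RAB inactivators 27 of 37 were measured, with 0 higher and 1 lower at an unadjusted p under 0.05, and among effectors 34 of 54, with 7 higher and 5 lower. The lowest adjusted p of all these lists was 0.0518, at MICALL1, an effector of RAB8 and RAB35 in recycling, with a change of -0.98, followed by 0.0553 at EVI5, a RAB11-binding protein with a GAP domain, with -1.19. Both were singled out after their values were seen.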

How the data were processed

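Total RNA of 4 samples was measured on 8 human U133 Plus 2.0 arrays. The authors deposited 1 intensity for each of 54675 probe sets and array, computed by MAS5, on a linear scale, with background subtraction and the summary over probes already done. The deposited signals have a 2% trimmed mean of 500.1 on every array, while the methods name a mean scaled to a larger value, and detection calls were not used here. The array medians were 65.3 to 74.8. Gene names came from the platform annotation updated through Entrez IDs, and 14544 of the 16517 probe sets tested have 1 gene, 765 several and 1208 none.

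With R 4.3.3 and limma 3.58.1, each signal was converted to log2 as it stood, without a floor or offset, and duplicate arrays were averaged. After removal of 62 control probe sets, those that reached 500 on any array entered the fit. The fit over all kept probe sets had the cell line and the siRNA as terms and a trend of the variance with signal, with 1 residual and 4.82 prior degrees of freedom. Two-sided p values were Benjamini-Hochberg adjusted over all probe sets tested. Changes within a line have no replicate, and no test was made of them in the main results.

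The text gives arrays for RAB genes that were called, past 2-fold in either line or in a paralog group, and for the line comparison up to 5 called genes in each direction. Genes of the related lists were to be named if called. The members and lists were chosen with earlier results of these data known. Alternatives covered the filter, scaling, floor, added constant, variance trend, duplicates as separate samples, probe set type, the methods' own test and each array left out. Promoter windows came from RefSeq tables, in which RAB1A, RAB2A, RAB20 and RAB38 had no entry used.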

Additional observations from a re-analysis of the deposited data

Results flagged for a closer look

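RAB31, which acts between the trans-Golgi network and early endosomes, moved in opposite directions in the 2 lines at probe set 217763_s_at. It read 1154 and 1136 in BOKU siCtrl and 654 and 637 in BOKU siIGF2R, and 697 and 731 in SKG-I siCtrl and 785 and 835 in SKG-I siIGF2R. The change was -0.83 in BOKU and 0.18 in SKG-I on the log2 scale, so the change in BOKU minus that in SKG-I was -1.01. The difference was not tested, since 1 RNA sample for each line and siRNA leaves no spread for it. Of the 58 RAB probe sets, 9 had arrays apart in opposite directions in the lines (15.5%, beside 13.0% of all probe sets), and this was the 1 where the changes also differed by at least 2-fold (1.72%, beside 4.57% of all). The other probe sets of RAB31 gave -0.56 and 0.18 at 217762_s_at and -0.51 and -0.02 at 217764_s_at in BOKU and SKG-I.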

How the results depend on the processing

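None of the RAB probe sets followed through the alternatives changed direction. RAB1B and the 3 called probe sets of RAB27A passed in all 18 alternatives that kept them, except a fit with no variance trend, where adjusted p was 0.102 to 0.103. RAB21 at 239329_at was lost in 5 of 18 alternatives, and RAB23 at 220955_x_at in 9 of 18, while RAB21 at 203885_at passed in 9 of 19. The choice of plain _at probe sets left out RAB1B, RAB27A and RAB23 at 220955_x_at, and the stricter filter left out RAB21 at 239329_at. The 6 genes named for the line difference passed in each alternative that kept their probe set, but the stricter filter left out RAB20, and the choice of plain _at probe sets left out the brightest of RAB32 and RAB7A.

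For the siRNA, against 4 RAB probe sets higher and 2 lower, no variance trend gave 0 and 0. That setting had 15 RAB probe sets at an unadjusted p under 0.05, and 0 calls of all probe sets. Arrays as separate samples gave 11 and 17 (of all probe sets 25.8% and 23.2%). The stricter filter (500 on all 4 arrays of a siRNA or line) left 1 of 52 lower (of all 1.72%). A floor of 100 left 1 of 58 lower (of all 2.18%). Probe sets ending in a plain _at alone left 0 of 28 higher (of all 2.49%), and the 2 lower there (of all 1.89%) were both of RAB21. Leaving out an array gave 3 to 6 higher and 1 to 3 lower, while the shares of all probe sets were 1.31% to 5.07% and 1.41% to 4.60%. For the lines, against 18 of 58 higher in BOKU (of all 22.3%) and 1 in SKG-I, arrays as separate samples gave 36 and 8 (of all 35.7% and 38.1%). Plain _at probe sets gave 9 of 28 in BOKU (of all 22.0%). The stricter filter gave 0 of 52 in SKG-I (of all 22.2%), and an added constant of 64 gave 2 of 58 (of all 24.0%). Leaving out an array gave 17 to 18 in BOKU and 1 to 2 in SKG-I (of all 21.5% to 23.2% and 22.4% to 23.8%). The 2 in SKG-I came without BOKU siCtrl array 1 or BOKU siIGF2R array 1. For 2-fold changes in BOKU, no filter gave 11 higher and 5 lower of 84 RAB probe sets, against 5 and 3 of 58. Of the 28 plain _at probe sets, 1 was 2-fold higher in BOKU, 2 in SKG-I, 0 higher in both and 1 lower in both. The stricter filter left 1 of 52 lower in both. Shares of all probe sets past 2-fold were not computed for these alternatives. For the related lists, an alternative added after seeing the data, the main fit called 0 and 0. No filter gave 1 higher and 1 lower of 412 (of all 0.908% and 0.734%). The added constant gave 2 and 3 of 170 (of all 3.97% and 3.48%), and arrays as separate samples 36 and 38 (of all 25.8% and 23.2%). Leaving out an array gave 0 to 3 higher and 0 to 5 lower. The most, 3 and 5, came without BOKU siCtrl array 1 (of all 5.07% and 4.60%). The cause of these shifts was not tested, beyond the fewer probe sets under the stricter filter and among plain _at sets.

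With arrays as separate samples and the replicate block, 12 RAB probe sets were higher and 17 lower after siIGF2R (of all 24.2% and 21.9%), 33 higher in BOKU and 9 in SKG-I (of all 35.1% and 37.4%), and 38 related probe sets were higher and 35 lower. The numbers label technical duplicates, and deviations of same-numbered arrays correlated at -0.006 to 0.126. The methods' t-test was run within a line on the 2 duplicate arrays of each RNA, so it covers the spread of hybridisation alone. At the methods' threshold it passed 26 RAB probe sets in BOKU (44.8%, of all 39.3%) and 25 in SKG-I (43.1%, of all 49.5%). After Benjamini-Hochberg adjustment it passed 11 (19.0%, of all 7.64%) and 16 (27.6%, of all 28.5%). With the 2-fold rule it left the 8 in BOKU and 9 in SKG-I at the unadjusted threshold, and 6 and 8 after adjustment. The 2 lines, with 1 RNA sample for each siRNA, limit every value. Signals near the array median, such as that of RAB20 in BOKU, limit some of them further.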
